A study of Mus musculus with 12 samples.

Results

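The Cd300 genes encode immunoglobulin-fold receptors of myeloid cells that bind lipids exposed on dying cells and in membranes. 6 of them were described here in spinal cord microglial RNA of mice with and without a conditional knockout of Kdm6a: Cd300a, Cd300lf, Cd300c2, Cd300lb, Cd300ld and Cd300e. They were taken by symbol from the 39017 gene IDs of the count table, and all 6 were found there, in 1 cluster on mouse chromosome 11. 5 of the 6 passed the low-count filter, as did 15015 genes in all, and Cd300e did not. The genes were chosen from results of these libraries, with the values in cKO and WT already known. The fold changes and calls between cKO and WT are therefore given as a description, with nothing read from how many of the genes were called.

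The family holds receptors of opposite sign. Cd300a and Cd300lf carry inhibitory tyrosine motifs (ITIMs) in their tails and recruit the phosphatases SHP-1 and SHP-2, encoded by Ptpn6 and Ptpn11. Cd300c2, Cd300lb and Cd300ld have short tails and signal through adaptors with activating tyrosine motifs (ITAMs), chiefly DAP12 (Tyrobp) and the Fc receptor gamma chain (Fcer1g). Cd300e is known as an activating receptor from work on the human protein. Phosphatidylserine, phosphatidylethanolamine and ceramide are among the known ligands of the family, so these receptors are studied for the sensing of apoptotic cells and of myelin and membrane lipid by phagocytes such as microglia.

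The cKO group was 6 libraries (cKO 1 to cKO 6) labelled Kdm6a cKO, and the WT group was 6 libraries (WT 7 to WT 12) labelled wildtype. All 12 came from spinal cords of C57BL/6 females in which EAE (experimental autoimmune encephalomyelitis, a mouse model of multiple sclerosis) had been induced, and both groups carried Tmem119-Cre:RiboTag, so that the WT mice also had the Cre. Tmem119 is a microglial gene, and RiboTag is an allele that puts an epitope tag on ribosomes of Cre-expressing cells, so that the RNA bound to their ribosomes can be pulled down. No other driver of the Kdm6a deletion is named in the labels. The labels give no age, no disease stage and no statement that the libraries of a group came from separate animals, so a p-value here measures spread between libraries, which may be technical. Read counts are given as CPM, that is, scaled to library totals corrected by TMM.

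Totals ran from 19040115 to 26296071 counts per library, and 3 counts corresponded to 0.109 to 0.157 CPM. Kdm6a, which encodes a histone H3 lysine 27 demethylase, averaged 2.79 ± 1.06 CPM in cKO and 4.53 ± 1.17 CPM in WT (SD, n = 6 each), with cKO 2 at 4.50 CPM inside the WT range. Its log2 fold change, cKO over WT throughout, was -0.70 ± 0.25 (SE), with an adjusted p of 0.117 in edgeR's quasi-likelihood test. Which part of the gene is deleted is not stated in the labels. All 10 microglial markers listed were present at 1 CPM or more, and their summed level was 7793 to 17817 CPM in cKO and 10471 to 12146 CPM in WT. RNA of other cells was present too. Markers of oligodendrocytes and their precursors summed to 1797 to 2636 CPM in cKO and 2135 to 2526 CPM in WT. Astrocyte markers summed to 425 to 595 CPM in cKO and 466 to 512 CPM in WT. Neuronal markers summed to 185 to 551 CPM in cKO and 169 to 247 CPM in WT. Their 10 log2 fold changes ran from 0.11 to 1.38, with a median of 0.76 and 0 called (edgeR). The median of the 10 microglial markers was 0.43, with 2 negative. Of 13 marker lists for cell types, the summed levels overlapped between the groups for 11 and stood apart for border macrophages and for B and plasma cells. Overlap of these ranges does not mean that the levels were equal. The B and plasma cell sum was 335 to 671 CPM in cKO and 194 to 284 CPM in WT, nearly all of it Ighm, at 323 to 657 CPM in cKO and 180.0 to 270 CPM in WT. Libraries cKO 1 and cKO 2 had the highest scores on a component of neuronal, glial and vascular markers, 1.61 and 2.33, against 0.553 or lower in the other 10 libraries.

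Levels per length set Cd300c2 far above the rest of the family. In CPM per kilobase of merged exon, Cd300c2 averaged 182 ± 33.0 in cKO and 246 ± 16.0 in WT. Cd300a followed at 9.53 ± 4.55 in cKO and 30.9 ± 5.38 in WT, then Cd300lf at 7.62 ± 8.46 in cKO and 16.7 ± 6.25 in WT, Cd300lb at 3.49 ± 4.09 in cKO and 10.998 ± 2.89 in WT, and Cd300ld at 1.25 ± 0.903 in cKO and 2.57 ± 0.446 in WT. This order of means was the same in both groups. The gap between Cd300c2 and Cd300a was 19.2-fold in cKO and 7.94-fold in WT, with no overlap of library values in either group. Cd300a and Cd300lf overlapped in both groups, as did Cd300lf and Cd300lb, while Cd300lb and Cd300ld overlapped in cKO and not in WT. Merged exon length takes in every annotated transcript, and genes with long rare transcripts are set too low by it.

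**Figure D1:**
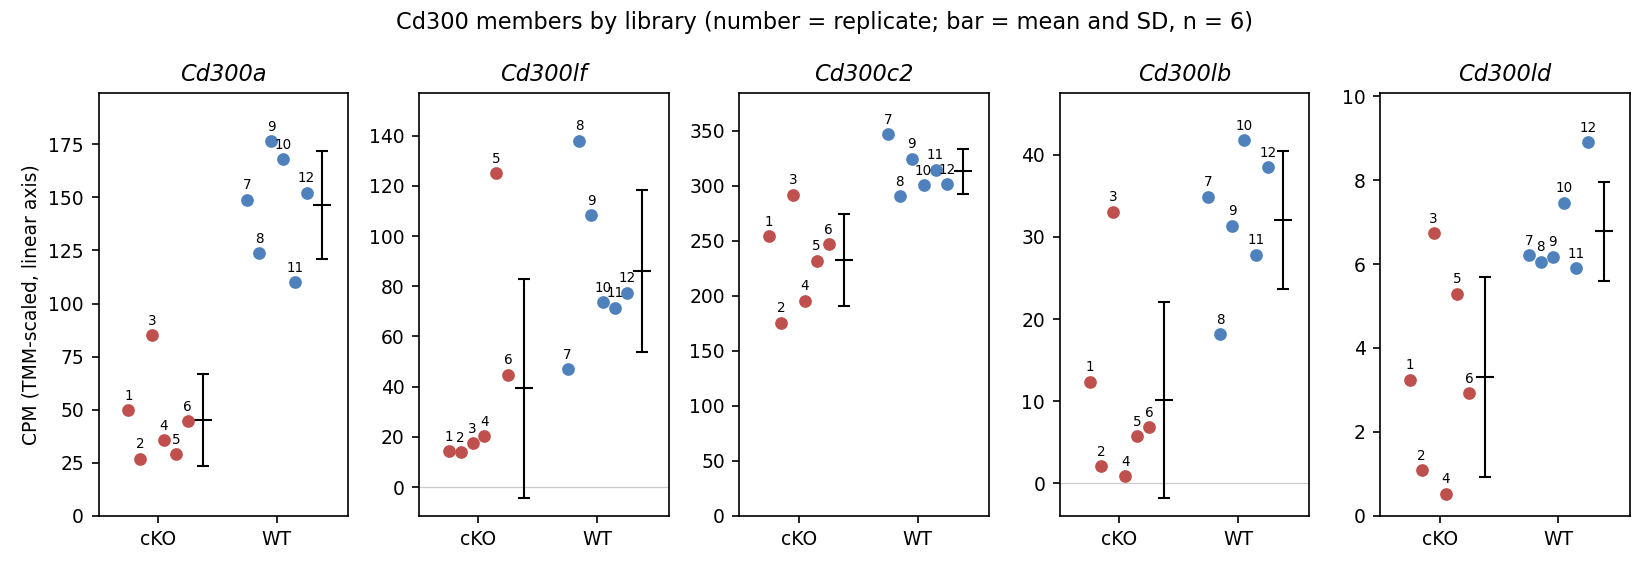
CPM of the 5 tested Cd300 genes in each library, on linear axes of different height, with cKO libraries (red) left of WT libraries (blue), numbered by replicate, and the mean and SD of each group as a black bar. The cKO libraries lie below every WT library for Cd300a, while cKO 3 lies inside the WT range for Cd300c2, Cd300lb and Cd300ld, and cKO 5 does so for Cd300lf.

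Cd300a was the inhibitory member with the most even difference between the groups. It encodes a receptor for phosphatidylserine and phosphatidylethanolamine, and lies on the plus strand of chromosome 11 at 114890041 to 114904654 (GENCODE annotation of mm10). In cKO its level was 26.8 CPM at the lowest (cKO 2), 40.1 CPM at the median and 85.2 CPM at the highest (cKO 3), and in WT it was 110 CPM at the lowest, 151 CPM at the median and 177 CPM at the highest. All 6 cKO libraries lay below the lowest WT library. The means were 45.1 ± 21.5 CPM in cKO and 147 ± 25.5 CPM in WT, a log2 fold change of -1.70 ± 0.25 with an adjusted p of 0.00147 (edgeR quasi-likelihood test, Benjamini-Hochberg over 15015 genes). In the edgeR fit 5.87% of all genes tested were called at an adjusted p under 0.05 in either direction, 3.43% were called lower in cKO, and 2.8% had every cKO library below every WT library. Of the 5 tested members 2 were called, Cd300a and Cd300c2, both lower in cKO, and 1, Cd300a, had every cKO library below every WT library. Cd300a stayed called in all 19 alternative settings, each of which leaves out libraries or changes the scaling, filter, tool or covariate. In bulk RNA, fewer cells of a type and less RNA per cell cannot be told apart.

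A stretch of Cd300a sequence is shared with Cd300c2. Of the 50-base words in Cd300a transcripts 3.45% also occur in another gene and 1.90% in Cd300c2, while 7.16% of the words in Cd300c2 occur in Cd300a. The labels do not state how reads that match more than 1 gene were counted. The shared 7.16% of the Cd300c2 level corresponds to 16.7 CPM in cKO and 22.4 CPM in WT. If all of it had been counted as Cd300a, the Cd300a means without it would be 28.5 CPM in cKO and 124 CPM in WT, a wider ratio between the groups than in the counts as deposited.

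Cd300lf, the other inhibitory member, was low in most cKO libraries and high in 1. It encodes a receptor for ceramide and phosphatidylserine that is also the entry receptor of murine norovirus, and lies on the minus strand at 115116214 to 115133992. In cKO its level was 13.8 CPM at the lowest (cKO 2), 18.8 CPM at the median and 125 CPM at the highest (cKO 5), and in WT it was 46.8 CPM at the lowest (WT 7), 75.5 CPM at the median and 138 CPM at the highest (WT 8). 5 of 6 cKO libraries lay below the lowest WT library, and cKO 5 lay near the top of the WT range. The nearest of the 5 was cKO 6, at 44.8 CPM against 46.8 CPM in WT 7. How many of all genes had 5 of 6 cKO libraries so placed was not counted, here or for the members below. The log2 fold change was -1.13 ± 0.52 with an adjusted p of 0.205 (edgeR). Without cKO 5 it was -1.96 with an adjusted p of 0.00483 (edgeR), in a fit that called 2818 genes against 882 with all libraries. Limma-voom with sample weights, which called 31.1% of all genes, gave -2.11 with an adjusted p of 0.000375. Without cKO 1 and cKO 2 together the edgeR log2 fold change was -0.73 with an adjusted p of 0.525, and with the marker component as covariate -0.80.

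Cd300lf lies inside the span of Rab37, a small GTPase gene on the opposite strand, with 0 shared exon bases. Rab37 averaged 5.42 ± 2.14 CPM in cKO and 3.57 ± 0.478 CPM in WT, a log2 fold change of 0.60 ± 0.25 with an adjusted p of 0.156 (edgeR). Its fitted change was thus of the opposite sign to that of Cd300lf, and neither passed the threshold with all libraries. Without cKO 5, Rab37 was called at 0.74 with an adjusted p of 0.0244 (edgeR), in the fit that called 2818 genes. Limma-voom with sample weights, which called 31.1% of all genes, gave 0.73 with an adjusted p of 0.00717. The Rab37 value was 0.19 with the neuronal, glial and vascular marker component as covariate and 0.28 without cKO 1 and cKO 2 together. The adjusted p were 0.572 and 0.598 (edgeR).

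Cd300c2, the most abundant member, was lower in cKO by a small margin. Its protein, called MAIR-II in mouse, signals through DAP12 and the Fc receptor gamma chain. The gene lies on the minus strand at 114996721 to 115001880. In cKO its level was 175 CPM at the lowest (cKO 2), 239 CPM at the median and 292 CPM at the highest (cKO 3), and in WT it was 291 CPM at the lowest (WT 8), 308 CPM at the median and 347 CPM at the highest (WT 7). 5 of 6 cKO libraries lay below the lowest WT library and cKO 3 lay just above it. The log2 fold change was -0.43 ± 0.12 with an adjusted p of 0.0493 (edgeR), just under the threshold of 0.05. The call was made in 6 of 19 alternative settings, with log2 fold changes between -0.50 and -0.35 and adjusted p between 0.00864 and 0.132. It was lost without cKO 1, 2 or 4 and without any 1 of the 6 WT libraries.

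Cd300lb and Cd300ld, the other activating members tested, were spread widely among the cKO libraries. Cd300lb (minus strand, 114922781 to 114934386) encodes a phosphatidylserine receptor that pairs with DAP12. In cKO its level was 0.868 CPM at the lowest (cKO 4), 6.29 CPM at the median and 33.1 CPM at the highest (cKO 3), and in WT it was 18.1 CPM at the lowest (WT 8), 33.1 CPM at the median and 41.8 CPM at the highest (WT 10). The highest cKO library held 38.1 times the level of the lowest, against 2.31 times among the WT libraries. 5 of 6 cKO libraries lay below the lowest WT library, and cKO 3 lay at the WT median. The log2 fold change was -1.67 ± 0.62 with an adjusted p of 0.121 (edgeR). Without cKO 3 it was -2.53 with an adjusted p of 0.0119 (edgeR), in a fit that called 943 genes. Limma-voom with sample weights, which called 31.1% of all genes, gave -2.54 with an adjusted p of 0.00669. The smallest change over the alternatives was -1.39.

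Cd300ld (minus strand, 114982274 to 114989922) encodes a receptor that pairs with the Fc receptor gamma chain. In cKO its level was 0.528 CPM at the lowest (cKO 4), 3.08 CPM at the median and 6.74 CPM at the highest (cKO 3), and in WT it was 5.90 CPM at the lowest, 6.20 CPM at the median and 8.90 CPM at the highest (WT 12). 5 of 6 cKO libraries lay below the lowest WT library, with cKO 3 inside the WT range. The nearest of the 5 was cKO 5, at 5.29 CPM against 5.90 CPM in the lowest WT library. The log2 fold change was -1.05 ± 0.44 with an adjusted p of 0.169 (edgeR). Limma-voom with sample weights, which called 31.1% of all genes, gave -1.78 with an adjusted p of 0.00749. The edgeR value was -0.77 with the marker component as covariate, -0.82 without cKO 1 and cKO 2 together, and -1.38 to -0.82 with 1 library left out. These are low counts, 14 to 142 reads per cKO library and 116 to 172 per WT library. Of its 50-base words, 3.66% also occur in Cd300lf.

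Cd300e (minus strand, 115051917 to 115062177) was at the limit of detection. Its 6 cKO libraries held 0, 1, 0, 0, 0 and 1 reads, and its 6 WT libraries held 0, 1, 0, 0, 2 and 1 reads. Each is under the floor of 3 counts per library, so no fold change is given. Intervals and floors of this kind cover counting error only.

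The other 6 genes with Cd300 names were at or near the same limit, and none passed the low-count filter. Cd300ld3 had 23 reads in all over the cKO libraries and 26 over the WT libraries, and Cd300lg, which lies outside the cluster, had 12 in cKO and 17 in WT. Cd300c had 6 reads in cKO and 15 in WT, Cd300ld4 had 0 in cKO and 4 in WT, Cd300ld2 had 1 in cKO and 1 in WT, and Cd300ld5 had 0 in both. The Cd300 reads counted in these libraries thus came almost wholly from the 5 tested members. How reads that match more than 1 gene were counted is not stated. Sequence shared among these 6 other genes was not measured, so their counts may be too low.

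The upstream sequences of the members that carry most of the signal are printed from RefSeq promoters on GRCm38.p6, each the 250 bases before the RefSeq start of the gene, read 5′ to 3′ on the gene's own strand. The RefSeq start lies inside the GENCODE gene for some of these genes, so that the window reaches 15 bases into the GENCODE gene for Cd300lb, 36 for Cd300ld, 79 for Cd300ld3 and 138 for Cd300e. Capitals mark GAGGAA, or TTCCTC where it lies on the other strand, a purine-rich core bound by PU.1, the factor that governs myeloid gene expression. Cd300a (chr11:114889791-114890040, plus strand), Cd300lf (chr11:115133993-115134242, minus strand), Cd300c2 (chr11:115001881-115002130, minus strand) and Cd300lb (chr11:114934372-114934621, minus strand) are shown because the results turn on them.
Cd300a: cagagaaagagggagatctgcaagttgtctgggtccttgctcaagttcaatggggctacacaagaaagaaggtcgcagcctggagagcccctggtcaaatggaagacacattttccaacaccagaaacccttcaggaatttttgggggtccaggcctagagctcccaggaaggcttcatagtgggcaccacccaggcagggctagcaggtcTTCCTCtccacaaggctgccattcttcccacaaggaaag
Cd300lf: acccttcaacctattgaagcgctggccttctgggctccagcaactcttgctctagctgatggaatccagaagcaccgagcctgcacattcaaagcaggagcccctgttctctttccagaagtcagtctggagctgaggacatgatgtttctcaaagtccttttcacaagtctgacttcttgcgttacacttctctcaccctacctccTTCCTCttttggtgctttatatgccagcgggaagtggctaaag
Cd300c2: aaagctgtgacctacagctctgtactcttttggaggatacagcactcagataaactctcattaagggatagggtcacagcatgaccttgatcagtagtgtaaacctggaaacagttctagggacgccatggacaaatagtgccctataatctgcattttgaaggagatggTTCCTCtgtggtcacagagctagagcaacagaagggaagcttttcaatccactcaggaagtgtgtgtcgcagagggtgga
Cd300lb: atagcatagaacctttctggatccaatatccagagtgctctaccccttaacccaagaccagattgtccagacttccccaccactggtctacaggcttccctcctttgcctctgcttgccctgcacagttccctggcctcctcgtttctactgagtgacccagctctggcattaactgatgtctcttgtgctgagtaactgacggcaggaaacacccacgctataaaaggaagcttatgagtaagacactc

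GAGGAA, searched on both strands with no other motif, occurred in 4 of the 6 member promoters and in 23.1% of 27025 RefSeq promoters of the same length, 1 per gene. It began 39 bases before the RefSeq start of Cd300a, 43 before that of Cd300lf and 80 before that of Cd300c2, on the opposite strand in each, and 143 before that of Cd300ld, on the gene's strand. These letters were not in the windows of Cd300lb and Cd300e. A match is a run of letters and was not tested as a site.

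The next pair is shown because the windows are near copies while the read counts are far apart. Cd300ld (chr11:114989887-114990136, minus strand) and Cd300ld3 (chr11:115048331-115048580, minus strand) aligned over 206 positions, of which 182 were identical (88.3%). Cd300ld had 14 to 172 reads per library, and Cd300ld3 had at most 10. Their merged exons differ in length, 2645 bases for Cd300ld and 852 for Cd300ld3. Per kb, Cd300ld averaged 1.25 CPM in cKO and 2.57 CPM in WT, and Cd300ld3 0.195 CPM in cKO and 0.240 CPM in WT. A link between the windows and the levels was not tested.
Cd300ld: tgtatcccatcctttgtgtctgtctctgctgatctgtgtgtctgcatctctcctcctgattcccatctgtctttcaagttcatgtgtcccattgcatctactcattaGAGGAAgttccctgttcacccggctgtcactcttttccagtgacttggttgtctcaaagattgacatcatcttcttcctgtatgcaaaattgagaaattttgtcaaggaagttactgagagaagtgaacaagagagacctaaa
Cd300ld3: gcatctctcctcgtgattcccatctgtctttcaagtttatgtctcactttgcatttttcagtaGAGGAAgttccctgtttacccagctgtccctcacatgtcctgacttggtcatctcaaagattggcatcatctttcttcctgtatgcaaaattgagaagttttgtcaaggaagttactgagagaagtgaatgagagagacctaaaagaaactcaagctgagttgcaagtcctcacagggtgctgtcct

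**Figure D2:**
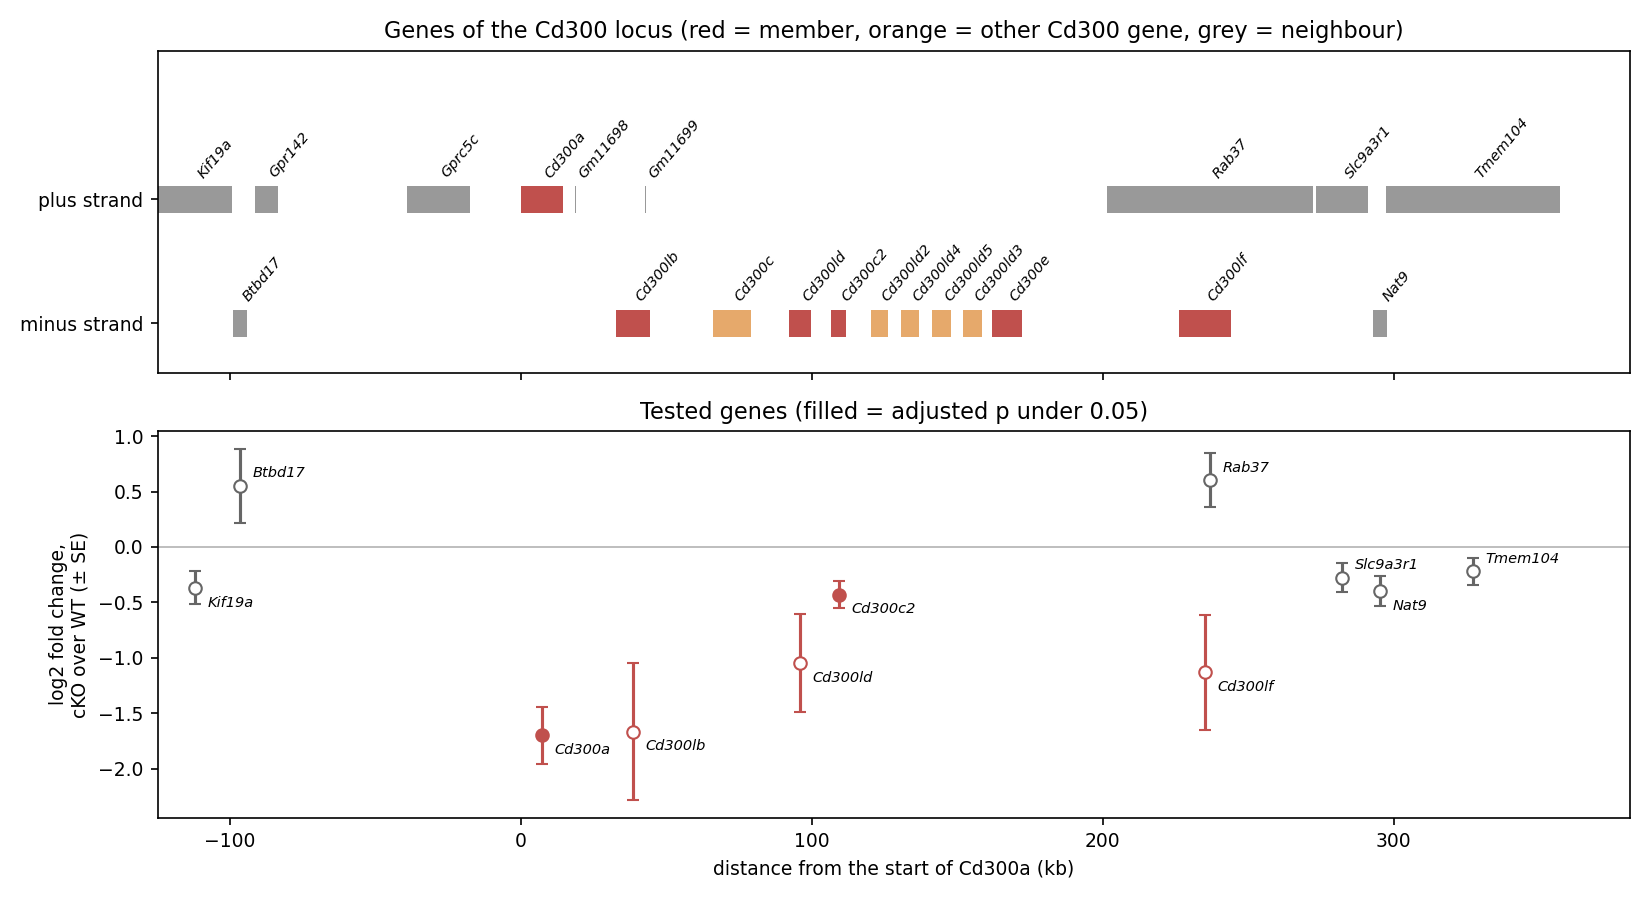
Map of the Cd300 locus on both strands (top) and log2 fold changes, cKO over WT, with SE for the 11 tested genes (bottom), both against the distance in kb from the start of Cd300a. All 5 members lie below 0, from -1.70 to -0.43. The 6 neighbours lie between -0.40 and 0.60, with none called by edgeR, which called 5.87% of all genes.

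No tested neighbour of the cluster was called by edgeR, which called 5.87% of all genes, so few calls among 6 genes would be looked for. Of 10 genes within 100 kb of the cluster that are not named Cd300, 6 passed the low-count filter, and 0 of the 6 were called by edgeR, with log2 fold changes between -0.40 (Nat9) and 0.60 (Rab37) and adjusted p between 0.103 and 0.351. An unadjusted p under 0.05 was reached by 3 of the 6. DESeq2, which called 11.8% of all genes, called 0 of them. Limma-voom with sample weights called 5, in a fit that called 31.1% of all genes. Besides those of Nat9 and Rab37, the fold changes were -0.37 for Kif19a, 0.55 for Btbd17, -0.28 for Slc9a3r1 and -0.22 for Tmem104. The median of the 5 tested members was -1.13, against 0.03 for all 15015 genes, and 5 of 5 members had a negative value, against 6815 of all genes. The choice of the members fixes that direction.

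The make-up of the family was set out from the same levels per length. Summed over the 6 members, the level was 204 ± 42.1 CPM per kb in cKO and 307 ± 15.9 CPM per kb in WT. Cd300c2 made up 89.7 ± 3.68% of that sum in cKO and 80.0 ± 2.58% in WT. Cd300a made up 4.53 ± 1.32% in cKO and 10.1 ± 1.49% in WT, with no overlap between the groups. The inhibitory members together reached 17.1 ± 7.98 CPM per kb in cKO and 47.6 ± 7.85 CPM per kb in WT, and the activating members 187 ± 37.4 in cKO and 259 ± 16.8 in WT. Nearly all of the activating sum was Cd300c2, at 182 in cKO and 246 in WT. The log2 fold changes of Cd300lb and Cd300ld, also activating, were -1.67 and -1.05. Those of the inhibitory Cd300a and Cd300lf were -1.70 and -1.13, and of these 4 genes only Cd300a was called (edgeR). The inhibitory share was 5.67% to 14.0% in cKO and 12.4% to 18.3% in WT, and only cKO 5, the library high in Cd300lf, lay inside the WT range. This share is mainly set against Cd300c2 alone. Its size depends on the merged exon lengths, 4738 bases for Cd300a, 5149 for Cd300lf and 1275 for Cd300c2.

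**Figure D3:**
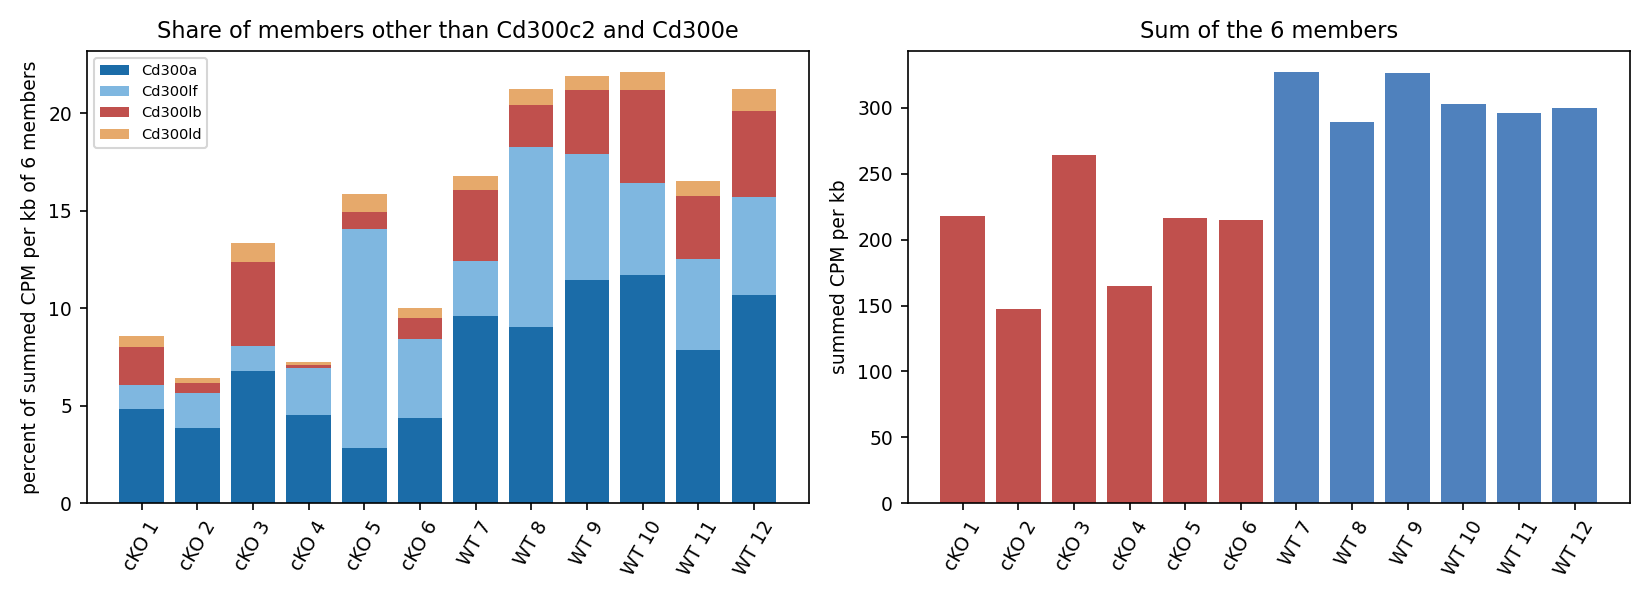
Left, percent of the summed CPM per kb of the 6 members that came from Cd300a, Cd300lf, Cd300lb and Cd300ld in each library, cKO libraries before WT libraries, with the remainder almost wholly Cd300c2. Right, the sum itself, which was 147 to 264 CPM per kb in cKO and 289 to 327 CPM per kb in WT.

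From library to library, 4 of the members deviated together to differing degrees, and Cd300lf did so less. Over the 12 libraries, after each group's mean was taken from its libraries, Pearson's r was 0.90 between Cd300lb and Cd300ld, 0.87 between Cd300c2 and Cd300lb, and 0.77 for each of Cd300a with Cd300c2, Cd300a with Cd300lb and Cd300c2 with Cd300ld. It was 0.52 between Cd300a and Cd300ld. Cd300lf had r of -0.29 with Cd300a, 0.03 with Cd300c2, -0.06 with Cd300lb and 0.34 with Cd300ld. These values rest mainly on the cKO libraries, where cKO 3 was highest for 4 of the members and cKO 2 or cKO 4 lowest. Between Cd300c2 and Cd300ld, r was 0.84 within cKO and -0.37 within WT. The points share libraries and their scaling, and the coefficients are descriptions of these 12 libraries.

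The genes whose deviations were most like those of each member, among 9619 genes averaging 5 CPM or more, differed from member to member. For Cd300lb they were led by Cxcr4, a chemokine receptor, with r of 0.98 over the 12 libraries, followed by Tmem37 and Myof. For Cd300ld they were led by Lyz1, a lysozyme gene, with r of 0.98, followed by Anxa2 and Creg2. For Cd300lf they were Psme2b, the helicase gene Ddx39 and the proteasome activator gene Psme2, with r of 0.99, 0.99 and 0.98. For Cd300a Snx33, a sorting nexin gene, came before Fgf13 and Tspan5 with r of 0.95, and for Cd300c2 Tmem159 came before Sfxn3 and Gas7 with r of 0.96. Within WT alone, r for these pairs ran from 0.30 (Anxa2 with Cd300ld) to 0.99 (Ddx39 with Cd300lf). With the group means left in, r of Fgf13 with Cd300a was -0.30 over the 12 libraries. Cxcr4 averaged 39.2 ± 33.0 CPM in cKO and 95.2 ± 18.04 CPM in WT, while Psme2 averaged 24.1 ± 18.03 CPM in cKO and 18.8 ± 4.28 CPM in WT. Psme2b and Psme2 are near copies whose reads may be split between them, and so are Lyz1 and its neighbour Lyz2.

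Markers of other myeloid cells were set beside the members, and in most of these lists 1 gene made up nearly the whole sum. The 10 border macrophage markers, of which 3 averaged at least 1 CPM, summed to 6.20 to 36.4 CPM in cKO and 41.4 to 82.8 CPM in WT, with no overlap. Most of that sum was Ms4a7, at 13.7 ± 10.9 CPM in cKO and 55.8 ± 13.3 CPM in WT. Cd163 averaged 0.0552 CPM in cKO and 0.0252 CPM in WT, under the floor of 3 counts, and Mrc1 0.590 CPM in cKO and 0.728 CPM in WT. Cbr2 had 16 reads in cKO and 85 in WT, F13a1 had 26 and 57, and Clec10a had 23 and 22. All 4 tested markers of this list had negative log2 fold changes, from -2.03 to -0.29, as did 6815 of all 15015 genes. In cKO the border macrophage sum was highest in cKO 3 and lowest in cKO 2 and cKO 4, as were Cd300c2, Cd300lb and Cd300ld. Cd300a was also highest in cKO 3 and lowest in cKO 2. The 10 monocyte markers summed to 166 to 1605 CPM in cKO and 236 to 708 CPM in WT, nearly all of it Fn1, at 150 to 1582 CPM in cKO and 226 to 686 CPM in WT, while Ccr2 was at most 0.477 CPM in cKO and 0.670 CPM in WT. The monocyte sum was highest in cKO 5, as was Cd300lf. It was 1189 CPM in cKO 6, where Cd300lf was at 44.8 CPM, and 1185 CPM in cKO 3, where Cd300lf was at 17.4 CPM. The 10 dendritic cell markers summed to 120 to 956 CPM in cKO, highest in cKO 3, and 280 to 549 CPM in WT, nearly all of it Itgax, at 102 to 924 CPM in cKO and 258 to 527 CPM in WT. Itgax is also known to be expressed by activated microglia. The 12 neutrophil markers summed to 153 to 303 CPM in cKO and 230 to 324 CPM in WT, mostly Csf3r, with Ly6g at 0 in every library, and the mast cell and basophil markers to 1.15 to 2.63 CPM in cKO and 0.876 to 1.38 CPM in WT with Fcer1a, Tpsab1, Ms4a2 and Mcpt4 at 0. The part of such cells in the Cd300 values was not tested. With the component of neuronal, glial and vascular markers as a covariate, Cd300a kept its call and Cd300c2 lost it. That component was built from none of the myeloid lists, so it cannot account for border macrophages, monocytes or other such cells.

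Calls among the signalling partners and the other receptors below are read against the share of all genes each tool called. That share was 5.87% for edgeR, 11.8% for DESeq2 and 31.1% for limma-voom with sample weights. Of 15 ITAM adaptors and kinases tested, 1 was called, lower in cKO, with a median log2 fold change of -0.12 over the list, against 7 called by weighted limma-voom and 2 by DESeq2. The adaptor called was Hcst (DAP10), at 7.23 ± 2.50 CPM in cKO and 13.3 ± 1.09 CPM in WT, with a log2 fold change of -0.88 ± 0.21 and an adjusted p of 0.0251 (edgeR). That call was lost without cKO 4, WT 9, WT 11 or WT 12, at adjusted p up to 0.0613. Tyrobp averaged 1169 ± 395 CPM in cKO and 1411 ± 107 CPM in WT, with a log2 fold change of -0.27 and an adjusted p of 0.458 (edgeR), and it ranged from -0.14 without cKO 2 to -0.43 without cKO 6. Fcer1g averaged 989 ± 362 CPM in cKO and 1366 ± 102 CPM in WT, with a log2 fold change of -0.47 and an adjusted p of 0.158 (edgeR). Without cKO 5, where it was highest, the call for Fcer1g was made at -0.68 with an adjusted p of 0.00496 (edgeR). The fit without cKO 5 called 2818 genes, against 882 with all libraries. With the marker component as covariate the Fcer1g value was -0.29 and without cKO 1 and cKO 2 together -0.30, at adjusted p of 0.291 and 0.479 (edgeR).

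On the inhibitory side, of 8 tested phosphatases and docking partners 1 was called, lower in cKO, with a median of -0.17, against 4 called by limma-voom. That gene was Dok1, a docking protein that damps tyrosine kinase signals, at 70.4 ± 15.1 CPM in cKO and 120 ± 17.0 CPM in WT. Its log2 fold change was -0.77 ± 0.14 with an adjusted p of 0.00679 (edgeR), and the cKO and WT libraries did not overlap. Ptpn6 (SHP-1) averaged 475 ± 97.0 CPM in cKO and 597 ± 44.0 CPM in WT, a log2 fold change of -0.33 with an adjusted p of 0.136 (edgeR). Without cKO 6, Ptpn6 was called at -0.47 with an adjusted p of 0.0242 (edgeR), in a fit that called 1410 genes. Its value was -0.21 with the marker component as covariate and -0.22 without cKO 1 and cKO 2 together. Ptpn11 (SHP-2) had a log2 fold change of 0.17 and the lipid phosphatase gene Inpp5d (SHIP-1) one of 0.16, with adjusted p of 0.256 and 0.496 (edgeR). The value for Inpp5d was 0.07 without cKO 2 and 0.02 with the marker component as covariate. Among 5 known receptor partners of Cd300 proteins edgeR called 0 in either direction, with a median of -0.14. For these 5, an unadjusted p under 0.05 was reached by 1, DESeq2 called 0 and limma-voom called 2. They include Il4ra, which Cd300lf associates with, at a log2 fold change of -0.31 (adjusted p of 0.476), and Tlr4, linked to Cd300lb, at 0.04 (adjusted p of 0.888), a sign that turned in 2 alternative settings. The value for Il4ra was -0.15 without WT 8, -0.19 without cKO 3 and -0.50 without cKO 5.

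Other receptors of the same ligands or signs gave mixed values. Of 17 tested receptors and bridging molecules for phosphatidylserine and lipid, 1 was called by edgeR, lower in cKO, with a median of 0.12. DESeq2 called 3 and limma-voom 8. Of all genes, edgeR called 5.87%, DESeq2 11.8% and limma-voom 31.1%. The gene called by edgeR was Gas6, which bridges phosphatidylserine to the TAM receptor kinases, at 255 ± 76.2 CPM in cKO and 523 ± 127 CPM in WT (log2 fold change -1.04 ± 0.22, adjusted p of 0.0139 by edgeR). Without cKO 1 and cKO 2 together the Gas6 call was lost at -0.96 with an adjusted p of 0.0651 (edgeR). Trem2, another lipid receptor that signals through DAP12, averaged 1397 ± 389 CPM in cKO and 1797 ± 255 CPM in WT, with an adjusted p of 0.229 (edgeR).

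Of 16 other inhibitory myeloid receptors tested, 1 was called higher and 3 lower, with a median of -0.17, and limma-voom called 8. Cd22, a sialic acid receptor with ITIMs, averaged 63.1 ± 44.1 CPM in cKO and 215 ± 25.9 CPM in WT, with a log2 fold change of -1.77 ± 0.35 and an adjusted p of 0.0102 (edgeR). Milr1 and Pilra had log2 fold changes of -1.09 ± 0.23 and -0.94 ± 0.21 (edgeR), and Pilra lost its call without WT 9, at an adjusted p of 0.0512, and without cKO 1 and cKO 2 together. Cd33, also a sialic acid receptor, went the other way, at 158 ± 36.4 CPM in cKO and 101 ± 9.71 CPM in WT (log2 fold change 0.64 ± 0.15, adjusted p of 0.022 by edgeR). Its call was lost without WT 7, 8, 9 or 12, at adjusted p up to 0.0605, and without cKO 1 and cKO 2 together. Of 11 other activating receptors tested 1 was called, higher in cKO, with a median of -0.28, against 7 called by limma-voom. That gene was Siglech, a receptor that also pairs with DAP12, at 291 ± 109 CPM in cKO and 88.6 ± 19.01 CPM in WT (log2 fold change 1.72 ± 0.25, adjusted p of 0.00119 by edgeR), and all 6 cKO libraries lay above the highest WT library.

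**Figure D4:**
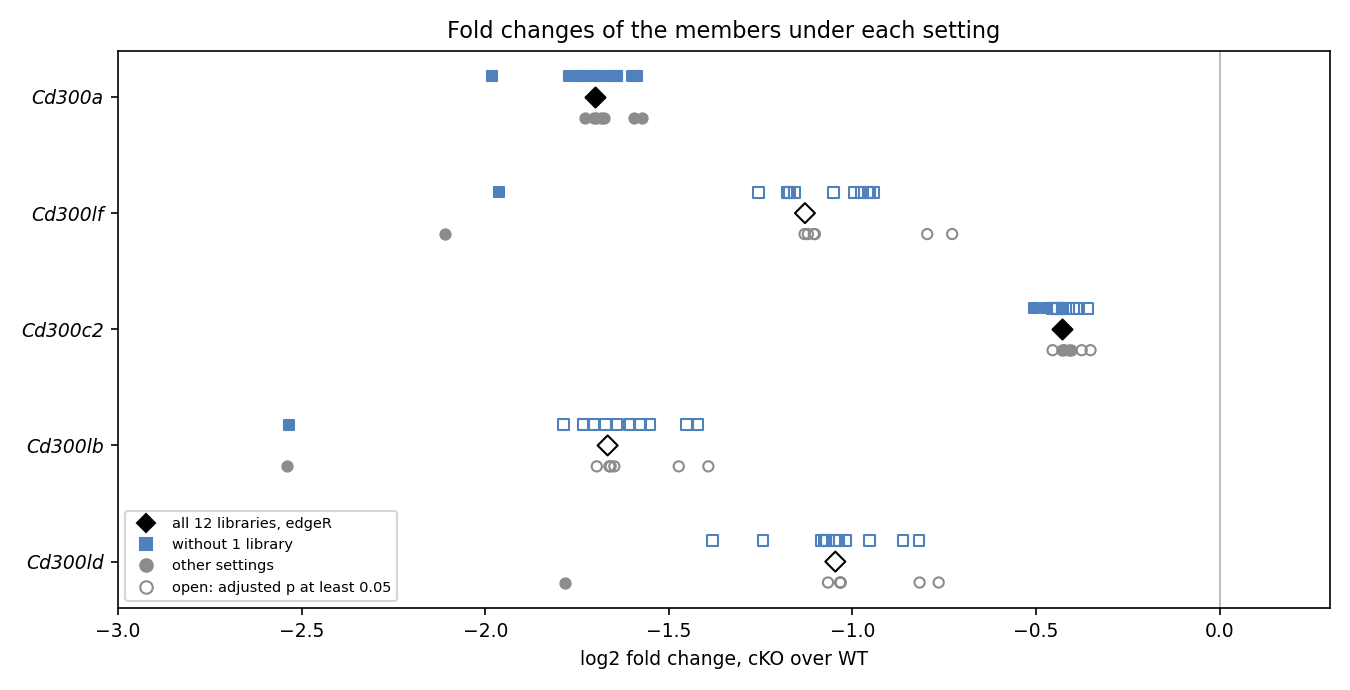
Log2 fold change, cKO over WT, of each tested member with all 12 libraries in edgeR (diamond), without 1 library (squares) and under the other settings (circles), filled where the adjusted p was under 0.05. Every point lies below 0 for the 5 members, Cd300a is filled throughout, Cd300lb is filled without cKO 3, Cd300lf without cKO 5, and all 5 members with limma-voom, which called 31.1% of all genes.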

How the data were processed

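RNA from Tmem119-Cre:RiboTag spinal cord microglia was sequenced in 12 libraries. The authors deposited raw read counts for 39017 Ensembl gene IDs. Library preparation enriched mRNA and selected strands (KAPA kit), per the labels' protocols. Per the submitters' processing notes, bcl2fastq 2.17, FastQC and Trimmomatic were used with the build mm10. For the aligner, the counting tool and its strand setting, and the annotation: not given in the sources used here.

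GENCODE annotation of mm10 gave symbols for 37607 IDs. The deposited counts were filtered with filterByExpr, scaled by TMM and fitted with edgeR 4.0.16 (R 4.3.3; glmQLFit, robust, cKO and WT, no covariate), with Benjamini-Hochberg adjustment over 15015 genes. The script was tested on simulated data. No pair of replicates was alike within sampling noise (lowest chi-square per degree of freedom 24.4). Alternatives were RLE scaling, DESeq2 1.42.0, limma-voom (limma 3.58.1), other filters, a marker component as covariate and libraries left out. Genes were named by a rule: all Cd300 genes, neighbours called or overlapping a member, up to 3 called genes per list and direction, set partners, and the 3 genes most like each member. Outside that rule, the other tested neighbours and some genes of the cell type marker lists were also named. Members and lists were chosen with earlier results of these data known.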

Additional observations from a re-analysis of the deposited data

Results flagged for a closer look

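On linear CPM, 1 cKO library stood apart from the other 5 for 2 of the members. For Cd300lb this was cKO 3, at 33.1 CPM, whose gap to the next library was 0.643 of the whole cKO range. For Cd300lf it was cKO 5, at 125 CPM, with a gap of 0.722 of the range. Such a gap rule marks about 1 in 20 groups by chance where values are normally spread. It was not applied on the log scale of the fold changes. The log2 fold changes without these libraries stand beside each gene above.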

How the results depend on the processing

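Cd300a kept its direction and its call in all 19 alternatives, with log2 fold changes from -1.98 to -1.57 and adjusted p from 7.03e-09 to 0.00721. All 5 tested members kept a negative sign in each alternative. Cd300c2 lost its call with RLE scaling (-0.42), with no filter (-0.455), with the marker component as covariate (-0.35) and without cKO 1 and cKO 2 together (-0.376), and ranged from -0.505 to -0.36 with 1 library left out. With limma-voom and sample weights, calls were gained at -2.54 for Cd300lb, -1.78 for Cd300ld and -2.11 for Cd300lf. With 1 library left out, Cd300lb ranged from -2.53 to -1.42 and Cd300lf from -1.96 to -0.94. The sign for Tlr4 turned with the marker component (-0.00404) and without cKO 4 (-0.0316), and values ranged up to 0.0891 with 1 library left out. For all genes, 882 were called with edgeR, 1819 with DESeq2, 4663 with limma-voom, 416 without cKO 1 and cKO 2 together, and 460 (without WT 9) to 2818 (without cKO 5) with 1 library left out. That count moved by over 1.5 times without cKO 1, 4, 5 or 6 and without WT 8, 9, 11 or 12. Of the calls, 58.4% were lower in cKO with edgeR, 46.2% with DESeq2, 46.3% with limma-voom, and 42.1% (without cKO 5) to 68.0% (without WT 11) over all alternatives. The cause was not tested. Kdm6a was called with DESeq2 (adjusted p 0.0492), limma-voom (0.0497) and the marker component (0.00881). Low counts limit Cd300ld, and no comparison could be made for Cd300e. No paired analysis was possible because the cKO and WT libraries share no replicate number.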
